A study of Mus musculus with 6 samples.

Results

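The E2F and DP transcription factors were followed in blood stem cells of mice, with and without induction of ETV6-RUNX1, a fusion gene of childhood acute lymphoblastic leukaemia. The members were chosen by gene name: E2f1 to E2f8 and their dimerization partners Tfdp1 and Tfdp2. These are 10 of the 55471 gene IDs in the deposited table, and all 10 were among the 13470 genes tested. The comparison asks how each member's transcript level differed with induction, and whether the activator and repressor members moved alike.

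All 6 libraries came from mice with the ETV6-RUNX1 genotype. The 3 uninduced libraries came from mice without doxycycline, and the 3 induced libraries from mice given doxycycline in their food for 2 weeks. No library from doxycycline-fed mice lacking the fusion was analysed here, so the fusion and the drug cannot be told apart. The promoter that drives the transgene, the age of the mice and any pooling of mice are not given in the sources used here. The cells were sorted as lineage-negative, Kit+, Sca1+, CD48- and CD150+, a gate for long-term haematopoietic stem cells. Total RNA was sequenced from small-input stranded libraries. The labels do not say that replicates came from separate mice, so p-values measure the spread between these samples, which may be technical. Levels are in TPM, a share of each library corrected for gene length, and the depth of each library is unknown because TPM keeps none. In bulk libraries, fewer cells that express a gene and less of its RNA per cell cannot be told apart.

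E2F proteins bind the promoters of genes that a cell needs to copy its DNA and divide. E2F1, E2F2 and E2F3 activate these genes once the pocket protein RB1 that covers them is phosphorylated by cyclin-dependent kinases. E2F4 and E2F5 hold the same genes down in resting cells, mostly together with the related pocket proteins p107 or p130 and, in the DREAM complex, with the MuvB subunits. E2F6 lacks the pocket-protein site and represses with Polycomb proteins, while E2F7 and E2F8 repress late in S phase, need no partner and are themselves E2F target genes. The other E2Fs bind DNA as dimers with DP1 (Tfdp1) or DP2 (Tfdp2). Adult blood stem cells are mostly out of cycle, and the pocket proteins are known to be needed to keep them so.

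Tfdp1, E2f7 and E2f8 fell with induction, and E2f3 fell on the scale as deposited. Mean Tfdp1 dropped from 71.0 ± 17.9 TPM (SD, n = 3) to 15.8 ± 3.23 TPM (SD, n = 3). E2f7 and E2f8, the repressors that are themselves switched on during S phase, were 9.29-fold and 9.50-fold lower by the ratio of their mean TPM. These folds rest on few libraries: E2f7 was 5.55-fold lower without uninduced replicate 2, and E2f8 was 25.3-fold lower without induced replicate 3. The levels and folds are as deposited, where the log2(TPM + 1) changes were -2.51 for E2f7, -2.50 for E2f8 and -2.09 for Tfdp1. They were smaller, at -2.20, -2.25 and -1.71, after the median-of-ratios scaling described below. E2f4, the most abundant E2F transcript in either group, kept 27.4 ± 2.98 TPM (SD, n = 3) against 42.6 ± 7.98 TPM (SD, n = 3) and did not pass the test. Tfdp2, the second DP gene, did not pass either, with group means of 20.01 and 21.6 TPM.

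Upstream sequence is shown for the 4 members called in the deposited values, because E2F genes are known to regulate one another. The sequences are the 250 bases before the start site of each RefSeq promoter window (GRCm38.p6), written 5′ to 3′ on the gene's strand. Capitals mark 8-base E2F-like strings (TTTNNCGC on either strand) and 6-base CHR strings (TTTGAA or TTCGAA on either strand), the CHR being the element that DREAM and B-MYB complexes bind in late cell cycle genes.
E2f3 (chr13:29986064-29986313, minus strand): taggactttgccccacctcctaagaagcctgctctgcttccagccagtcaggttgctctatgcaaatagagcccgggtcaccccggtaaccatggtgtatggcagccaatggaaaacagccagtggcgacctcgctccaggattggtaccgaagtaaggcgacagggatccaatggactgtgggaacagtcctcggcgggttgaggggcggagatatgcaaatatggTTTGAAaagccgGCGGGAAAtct
E2f7 (chr10:110745189-110745438, plus strand): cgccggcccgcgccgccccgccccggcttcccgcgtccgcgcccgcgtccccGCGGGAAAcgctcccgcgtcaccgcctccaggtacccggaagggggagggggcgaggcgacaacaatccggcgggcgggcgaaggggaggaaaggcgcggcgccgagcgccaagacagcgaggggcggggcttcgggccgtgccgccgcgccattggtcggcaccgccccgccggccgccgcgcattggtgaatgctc
E2f8 (chr7:48881597-48881846, minus strand): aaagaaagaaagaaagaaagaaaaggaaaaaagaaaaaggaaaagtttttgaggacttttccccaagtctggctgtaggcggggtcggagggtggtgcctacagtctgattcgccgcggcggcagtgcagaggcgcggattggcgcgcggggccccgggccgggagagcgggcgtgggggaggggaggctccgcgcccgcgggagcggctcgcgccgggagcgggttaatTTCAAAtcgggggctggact
Tfdp1 (chr8:13338501-13338750, plus strand): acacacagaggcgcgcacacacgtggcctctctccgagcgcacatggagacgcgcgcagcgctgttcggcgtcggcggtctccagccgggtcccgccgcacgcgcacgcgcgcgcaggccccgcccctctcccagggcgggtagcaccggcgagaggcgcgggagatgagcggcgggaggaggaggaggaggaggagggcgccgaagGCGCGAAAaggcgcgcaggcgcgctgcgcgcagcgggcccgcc
In E2f3 an E2F-like string, GCGGGAAA, began at position -11 from the start site and a CHR string, TTTGAA, at -23. A second E2f3 window, 1672 bases inside the gene, held neither string. The same 8 letters, GCGGGAAA, began at -198 in E2f7. Tfdp1 held GCGCGAAA at -43, and E2f8 held no E2F-like string but a CHR string, TTCAAA, at -20. Over the whole windows of 300 bases (250 before and 50 after the start), 5.17% of all 32851 windows in the table held an E2F-like string and 19.2% a CHR string. Windows were given for 8 of the 10 members, and none for E2f4 and E2f5. E2f2 had E2F-like strings at positions 5 and 40 downstream of its first start and a CHR string at -31 in its second window, which lies 8388 bases inside the gene. The windows of E2f1, E2f6 and Tfdp2 held neither string, but those of E2f1 and Tfdp2 lie 466 and at least 62430 bases inside the annotated gene. A match is only a match of letters, and a window without one says nothing of binding by an E2F.

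The levels of the family set the frame for its changes. In uninduced cells Tfdp1 was highest at 71.0 TPM, above E2f4 at 42.6 TPM, and the ranges of these 2 genes did not overlap. Below them came Tfdp2, E2f7, E2f6 and E2f8, each of which overlapped the next in range, then E2f3 at 6.29 TPM, and last E2f5, E2f1 and E2f2, again with overlapping ranges. In induced cells E2f4 (27.4 TPM), Tfdp2 (21.6 TPM) and Tfdp1 (15.8 TPM) came in that order, each overlapping the next in range. E2f6 stood alone at 5.90 TPM, and the other 6 members, between 3.47 TPM for E2f5 and 0.965 TPM for E2f1, each overlapped their neighbour. Since TPM is corrected for length, these levels can be set roughly against one another within a library. Limits on the values of E2f5 and Tfdp1 are given below.

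**Figure D1:**
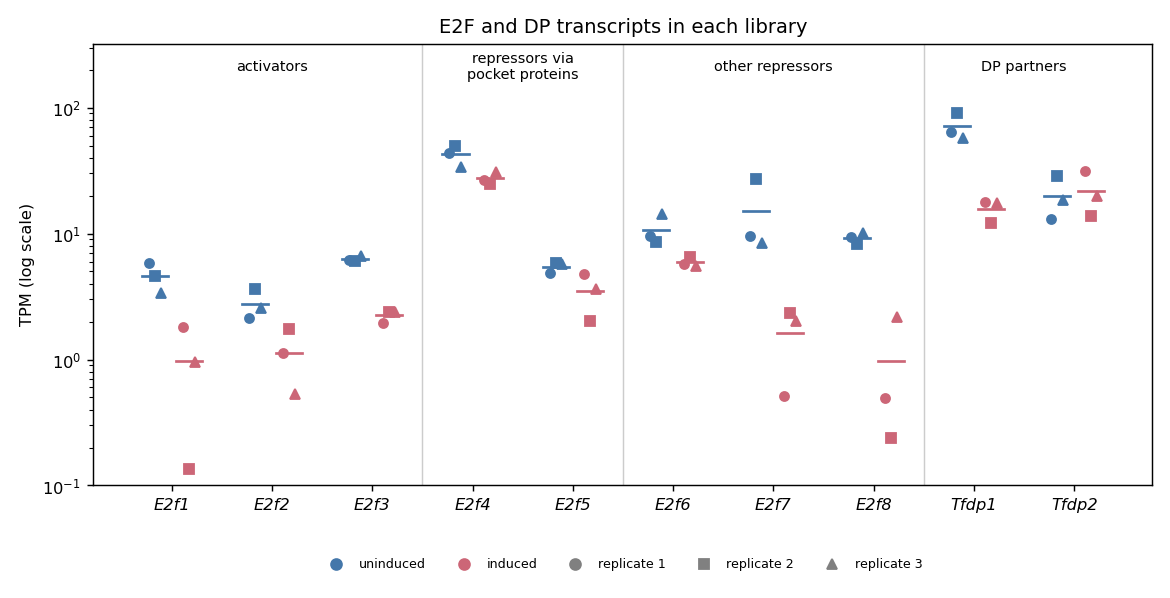
Transcript level of each member in TPM on a log axis, with 1 point for each library (shape: replicate number, which pairs nothing) and a line at the mean of the 3 libraries of each group. The groups do not overlap for 9 of the 10 members, E2f7, E2f8 and Tfdp1 among them. The 3 induced points of Tfdp2 (13.7 to 31.3 TPM) lie over the uninduced ones (13.2 to 28.6 TPM).

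Among all 13470 genes tested, 10.2% were called lower and 1.29% higher (limma, adjusted p under 0.05), and 28.2% were lower with no overlap between groups. Of the members, 4 of 10 were called lower, none higher, and 9 of 10 were lower with no overlap. The median change of all tested genes was -0.35 on the log2(TPM + 1) scale, so the deposited values lean downward as a whole. Each member's change is therefore given again after median-of-ratios scaling, which divides each library by its typical ratio to a common reference and brought the median gene to -0.0027. On that scale 3.21% of genes were called lower and 2.84% higher, and 14.5% were lower with no overlap. The members called there were 3 of 10, all lower, and 5 of 10 were lower with no overlap. All 10 members had passed the filter of a mean of at least 1 TPM, but E2f1 and E2f8 had induced means under 1 TPM and passed through their uninduced level, and changes of such low genes are understated on this scale.

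The activators came first in the comparison. E2f1 (ENSMUSG00000027490, chr2:154559407-154569892), the activator also known for driving cell death genes, read 5.84, 4.61 and 3.39 TPM in the uninduced libraries and 1.81, 0.135 and 0.953 TPM in the induced ones. Every induced library lay below every uninduced one, and induced replicate 2 was the lowest. The change was -1.59 (SE 0.45) on the log2(TPM + 1) scale with a limma adjusted p of 0.0506, just outside the threshold, and -1.35 with an adjusted p of 0.120 after median-of-ratios scaling. E2f2 (ENSMUSG00000018983, chr4:136172394-136196057), an activator with a known role in blood cell proliferation, read 2.13, 3.64 and 2.57 TPM uninduced and 1.12, 1.74 and 0.533 TPM induced. These groups did not overlap as deposited but did after scaling. The change of -0.85 (limma adjusted p = 0.226) had a 95% interval from -1.80 to 0.10, and was -0.59 (adjusted p = 0.468) after scaling.

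E2f3 (ENSMUSG00000016477, chr13:29906575-29986063) gives rise to a longer activator and a shorter form that can repress, and the deposited gene values do not separate them. It read 6.20, 6.05 and 6.62 TPM in uninduced and 1.95, 2.39 and 2.38 TPM in induced libraries. The libraries of each group lay close together and far from the other group. E2f3 was the only activator called, with a change of -1.17 (SE 0.32, limma adjusted p = 0.0450). After median-of-ratios scaling the change was -0.86 and no longer called (adjusted p = 0.148), though the groups remained apart. It was also not called when any single library was left out (adjusted p 0.0906 to 0.123).

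The pocket-protein-dependent repressors had the smallest changes among the E2Fs on either scale. E2f4 (ENSMUSG00000014859, chr8:105297663-105305370) is the main E2F of resting cells. It read 43.96, 49.8 and 34.0 TPM uninduced and 26.7, 24.9 and 30.7 TPM induced, so induced replicate 3 came close to uninduced replicate 3. Its change was -0.60 (SE 0.21, limma adjusted p = 0.0974) with a 95% interval from -1.08 to -0.13. After median-of-ratios scaling the groups overlapped, and the change was -0.22 with an interval from -0.59 to 0.16 (adjusted p = 0.509). E2f5 (ENSMUSG00000027552, chr3:14578641-14606309), the other E2F that works mainly with p107 and p130, read 4.85, 5.83 and 5.70 TPM against 4.74, 2.02 and 3.65 TPM. Induced replicate 1 lay just under the lowest uninduced library. The change of -0.58 (limma adjusted p = 0.331) ran from -1.38 to 0.22 in its 95% interval, and was -0.26 (adjusted p = 0.721) after scaling. With a library left out, the change on the deposited scale ranged from -0.78 to -0.32. Exons of E2f5 overlap those of 1810022K09Rik on the other strand, a more abundant gene at 69.96 to 87.4 TPM uninduced and 26.6 to 61.3 TPM induced. Whether reads were counted by strand is not given in the sources used here, so the E2f5 values are uncertain.

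E2f6 (ENSMUSG00000057469, chr12:16810963-16839742) represses without pocket proteins, as part of a Polycomb complex. It read 9.49, 8.60 and 14.2 TPM uninduced and 5.72, 6.48 and 5.49 TPM induced. The induced libraries lay within about 1 TPM of each other, and uninduced replicate 3 stood highest. The change of -0.74 (SE 0.30) did not pass the test (limma adjusted p = 0.135), and after median-of-ratios scaling the groups overlapped at -0.39 (adjusted p = 0.521).

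The atypical repressors E2f7 and E2f8 had the largest changes of the family on the log2(TPM + 1) scale. E2f7 (ENSMUSG00000020185, chr10:110745439-110787384) read 9.64, 27.2 and 8.41 TPM in uninduced libraries and 0.515, 2.34 and 2.02 TPM in induced ones. Uninduced replicate 2 was far above its group, and the groups did not overlap with or without it. The change was -2.51 (SE 0.49, limma adjusted p = 0.0124), the 57th lowest of the 13470 tested genes, and -2.20 (adjusted p = 0.0329) after median-of-ratios scaling. Leaving out uninduced replicate 2 gave -2.01 with an adjusted p of 0.0527, and leaving out induced replicate 1 gave -2.15 with an adjusted p of 0.0512, so 1 library decides the call in either case.

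E2f8 (ENSMUSG00000046179, chr7:48866429-48881596) encodes a repressor that forms dimers with E2F7. Its uninduced libraries read 9.40, 8.25 and 10.03 TPM and its induced ones 0.490, 0.239 and 2.18 TPM. All induced values were low, with replicate 3 the highest of them. The change was -2.50 (SE 0.43, limma adjusted p = 0.00686) and -2.25 (adjusted p = 0.0196) after median-of-ratios scaling, and E2f8 was called under each of the 17 alternative settings tried. Antisense genes overlap the exons of E2f7 (1700020G17Rik, at most 0.172 TPM) and of E2f8 (Gm2788, at most 0.965 TPM). They were at or near 0 beside the levels of the 2 members in uninduced cells.

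Of the DP partners only Tfdp1 was called. Tfdp1 (ENSMUSG00000038482, chr8:13338751-13378448) encodes DP1, with which most E2Fs bind DNA. Its uninduced libraries read 64.3, 91.3 and 57.4 TPM, and its induced ones 17.8, 12.1 and 17.5 TPM. All induced libraries lay far below all uninduced ones, and replicate 2 was the highest of its group when uninduced and the lowest when induced. Its change of -2.09 (SE 0.25) had the smallest adjusted p of the family, 0.00170 by limma, and it was -1.71 (adjusted p = 0.00291) after median-of-ratios scaling and called under each of the 17 alternatives. A gene named Gm7390 shares 97.6% of 1230 aligned transcript bases with Tfdp1, so reads could have been split between them. Gm7390 read 9.89, 17.1 and 8.36 TPM against 7.13, 5.75 and 4.25 TPM, below Tfdp1 in all 6 libraries.

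Tfdp2 (ENSMUSG00000032411, chr9:96196275-96323646) encodes DP2, the alternative partner. It read 13.2, 28.6 and 18.3 TPM uninduced and 31.3, 13.7 and 19.8 TPM induced. High and low libraries occurred in either group, and the groups overlapped over most of their range. The change was 0.10 (limma adjusted p = 0.887) with a 95% interval from -0.69 to 0.88, and 0.48 (adjusted p = 0.465) with an interval from -0.28 to 1.24 after median-of-ratios scaling. The direction of so small a difference turned when uninduced replicate 1 or induced replicate 1 was left out.

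**Figure D2:**
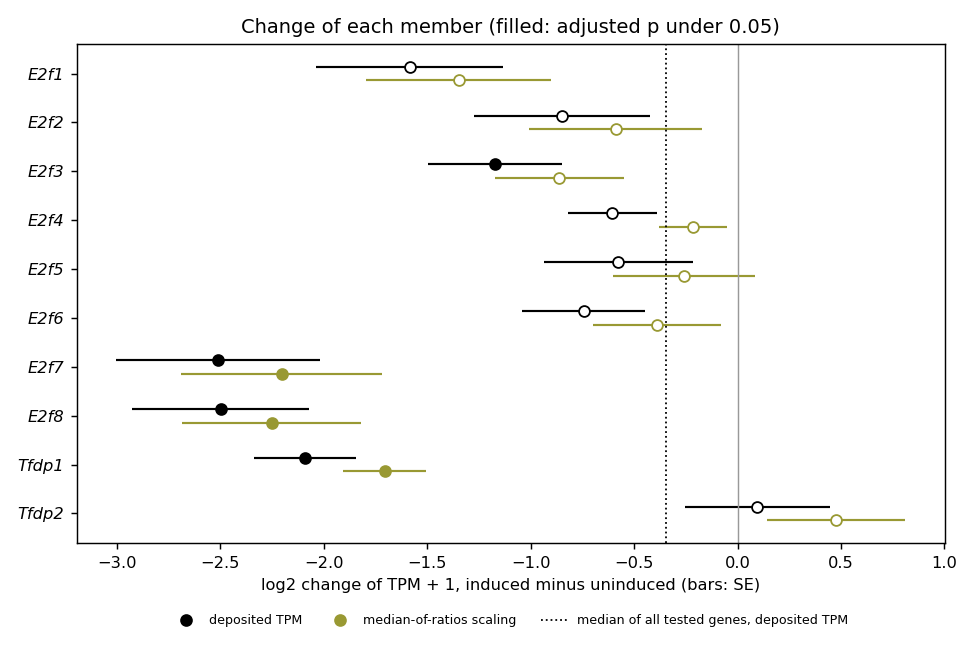
Change of each member in log2(TPM + 1), induced minus uninduced, with the SE from limma, as deposited (black) and after median-of-ratios scaling (olive); filled points had an adjusted p under 0.05 and the dotted line is the median of all tested genes, -0.35. E2f7, E2f8 and Tfdp1 are filled on either scale, E2f3 only as deposited, and Tfdp2 alone lies to the right of 0.

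Activators and repressors did not separate as classes. The median change was -1.17 over the 3 activators and -0.74 over the 5 repressors, but the repressors ran from -0.58 for E2f5 to -2.51 for E2f7. Split by their mode of action, E2f4 and E2f5 had a median of -0.59 and E2f6, E2f7 and E2f8 a median of -2.50. After median-of-ratios scaling the medians were -0.86 for the activators, -0.24 for E2f4 and E2f5, and -2.20 for E2f6 to E2f8. These are descriptions of few genes, with no test.

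Within-library shares do not move when a whole library is rescaled. Summed TPM of E2f1 to E2f8, which does move, was 96.8 ± 15.2 (SD, n = 3) uninduced and 43.7 ± 3.89 (SD, n = 3) induced as deposited. E2f4 and E2f5 together held 53.3%, 48.8% and 46.8% of it in the uninduced libraries and 73.0%, 66.9% and 71.7% in the induced ones. All induced libraries were above all uninduced ones, so the E2F transcripts left after induction were mostly those of the resting-cell repressors. E2f7 and E2f8 went from 20.8%, 31.1% and 21.7% to 2.34%, 6.41% and 8.78%, again without overlap. The activators held 14.3 ± 1.54% (SD, n = 3) and then 9.99 ± 1.70% (SD, n = 3), also without overlap, and E2f6 held 11.5 ± 4.70% and 13.6 ± 2.34% (SD, n = 3 each) with overlap. Shares of a sum are tied to one another, since a lower share of some members raises the rest.

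The balance of the DP partners moved toward Tfdp2. Tfdp1 made up 83.0%, 76.2% and 75.8% of the summed Tfdp1 and Tfdp2 TPM in uninduced libraries and 36.3%, 46.8% and 46.9% in induced ones. By these values Tfdp1 was the higher of the 2 in all 3 uninduced libraries and the lower in all 3 induced ones. The order in induced cells depends on Gm7390, since the sum of Tfdp1 and Gm7390 (24.95, 17.8 and 21.7 TPM) was above Tfdp2 in 2 of the 3 induced libraries. Their log2 ratio, with 1 TPM added to each, was 1.81 ± 0.34 (SD, n = 3) and -0.37 ± 0.35 (SD, n = 3), a difference of -2.19. Its exact two-sided permutation p was 0.1, the floor for groups of 3, and 0.16 after adjustment over the 8 ratios computed. With Gm7390 added to Tfdp1, an alternative chosen after seeing the data, the difference was -1.97 and the groups remained apart (2.03 ± 0.33 and 0.056 ± 0.34, SD, n = 3 each).

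The other 7 ratios set each E2F against E2f4. Those of E2f7 (-1.91), E2f8 (-1.89), E2f1 (-0.98) and E2f3 (-0.57) were lower in every induced library than in every uninduced one, each with an exact permutation p of 0.1 (0.16 adjusted). E2f2 (-0.24, exact permutation p = 0.7), E2f5 (0.028, p = 1) and E2f6 (-0.14, p = 0.9) overlapped between groups relative to E2f4. With a pseudocount of 5 TPM in place of 1, the ratios were -0.15 for E2f1 (exact permutation p = 0.3) and -0.098 for E2f3 (p = 0.7), with overlap, and -0.95 for E2f7 and -0.72 for E2f8, without. With 0.1 TPM they were -1.94 for E2f1, -0.83 for E2f3, -2.54 for E2f7 and -2.97 for E2f8, so the size of each rests on the pseudocount. With this exact test no ratio could pass the threshold in groups of 3.

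**Figure D3:**
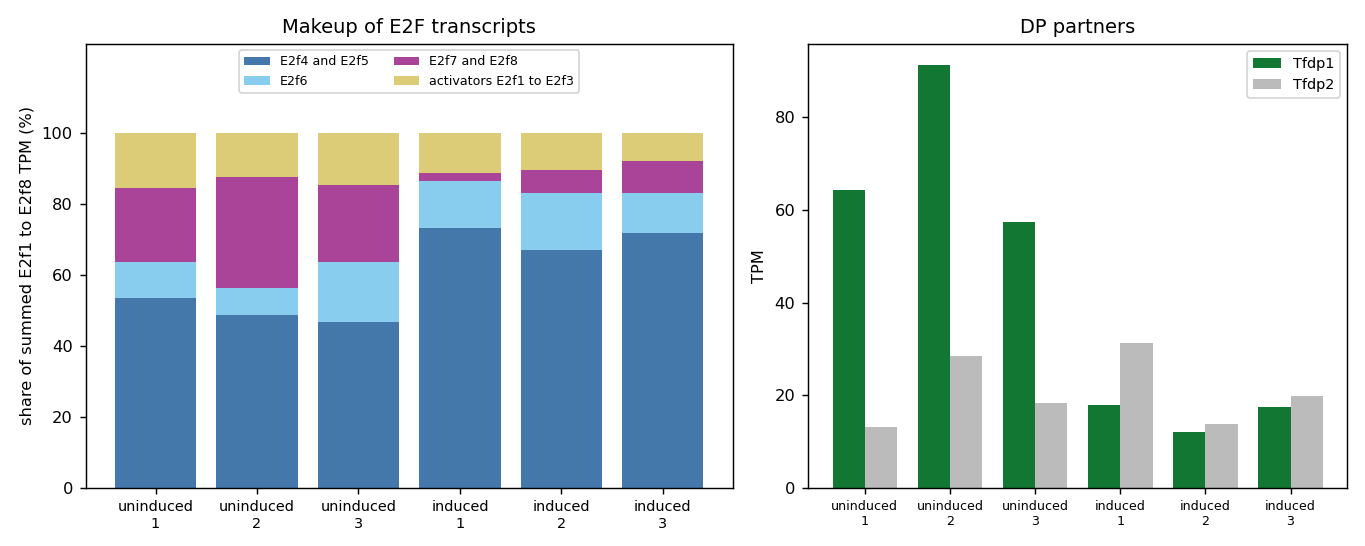
Left, share of the summed TPM of E2f1 to E2f8 held by each class in each library, as stacked bars adding to 100%. Right, TPM of Tfdp1 and Tfdp2 in each library: the Tfdp1 bar, without Gm7390, is the taller in the 3 uninduced libraries and the shorter in the 3 induced ones, an order that turns in 2 induced libraries when Gm7390 is added.

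Profiles most like those of the called members were looked up across all tested genes, by the root mean square difference of centred log2(TPM + 1) over the 6 libraries. For Tfdp1 the nearest were Suv39h1, a histone H3 lysine methyltransferase (0.111), and the replication helicase genes Mcm6 (0.129) and Mcm2 (0.131). For E2f8 they were Pkmyt1, a kinase that holds back CDK1 (0.196), 1500009L16Rik (0.237) and Dnph1, a nucleotide hydrolase (0.243). For E2f7 they were Alg8 (0.292), Tnfrsf12a (0.360) and Gp9, a platelet glycoprotein (0.367), and for E2f3 Gm17087 (0.0263), Gsk3a (0.0434) and Klc1 (0.0584). These are ranks over 6 libraries in 2 groups and carry no test.

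The rest of the pathway was described through 7 lists of 130 genes, the members left out. Of the 116 tested, 78 were called lower and none higher, beside the 10.2% and 1.29% of all genes. After median-of-ratios scaling 57 were called lower, beside 3.21% of all genes, and none higher. Genes such as these pass the filter through the group where they are high, and 20 of the 116 had an induced mean under 1 TPM.

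The pocket proteins that E2Fs bind were measured in all libraries. Rb1, which binds the activators, read 5.47, 5.20 and 6.34 TPM uninduced and 5.05, 3.78 and 4.59 TPM induced, a change of -0.29 (limma adjusted p = 0.584) that turned to 0.04 (adjusted p = 0.953) after median-of-ratios scaling. Rbl1 (p107), itself an E2F target, read 15.8, 23.6 and 17.9 TPM and then 6.77, 7.55 and 12.5 TPM, without overlap, and missed the threshold at -1.04 (limma adjusted p = 0.0505; -0.67 and 0.191 after scaling). Rbl2 (p130), the partner of E2F4 in resting cells, fell from 51.6 ± 7.999 to 30.4 ± 1.82 TPM (SD, n = 3 each) with a change of -0.74 (limma adjusted p = 0.0380), but was at -0.35 (adjusted p = 0.379) after median-of-ratios scaling. Over the whole list of pocket proteins and MuvB subunits, 4 of 10 were called lower, beside 10.2% of all genes, with a median of -0.78. After scaling 1, Mybl2, was called lower, beside 3.21% of all genes, with a median of -0.39. With any 1 library left out the count on the deposited scale was 1 to 2. The lower genes by limma were Rbl2, Rbbp4, a histone chaperone and MuvB subunit (-0.82, adjusted p = 0.0284), Foxm1 (-1.75, adjusted p = 0.0255) and Mybl2 (-2.93, adjusted p = 0.00606). After scaling Rbbp4 was at -0.43 (limma adjusted p = 0.199), Foxm1 at -1.46 (adjusted p = 0.0739) and Mybl2 at -2.71 (adjusted p = 0.0144). Foxm1 and Mybl2 encode the activators of late cell cycle genes that join MuvB in dividing cells, and Mybl2 read 11.8, 13.2 and 6.57 TPM uninduced and 0, 0.116 and 1.77 TPM induced. Of the other MuvB core genes, Lin9 (-0.45), Lin37 (0.42) and Lin52 (-0.19) overlapped between groups, and Lin54 (-0.88, limma adjusted p = 0.158) did not, and none of these was called.

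Upstream of the pocket proteins, 13 of 15 G1 cyclins, kinases and inhibitors were tested, with a median of -0.77. Of these 13, 5 were called lower, beside 10.2% of all genes, and 3 after median-of-ratios scaling, beside 3.21%. On the deposited scale the count was also 3 without uninduced replicate 1, uninduced replicate 2, induced replicate 2 or induced replicate 3. It was 5 without uninduced replicate 3 and 6 without induced replicate 1. Ccne1, the cyclin E1 that works with CDK2 at the start of S phase, read 5.28, 6.06 and 3.42 TPM and then 0.492, 0.457 and 0 TPM, a change of -2.16 (limma adjusted p = 0.0121; -1.94 and 0.0254 after scaling). The D-type cyclins Ccnd1 (-1.55, adjusted p = 0.0227) and Ccnd3 (-1.16, adjusted p = 0.0252) were called lower by limma as deposited, but not after scaling (adjusted p = 0.0745 and 0.138). The D-type cyclin Ccnd2 (-1.08, limma adjusted p = 0.00537) and the kinase Cdk4 (-1.11, adjusted p = 0.00565) were called on either scale, with -0.69 (adjusted p = 0.0249) and -0.71 (adjusted p = 0.0356) after scaling. The cyclin Ccne2 and the kinases Cdk2 and Cdk6 were tested but not called. None of the 5 inhibitors that passed the filter was called. These were Cdkn1a (0.16), Cdkn1b (0.43), Cdkn1c (-0.55), Cdkn2c (0.057) and Cdkn2d (-0.44), each with overlapping groups. Below the filter, Cdkn2a was listed at 0 in all libraries, and Cdkn2b was listed at 0 except for 0.668 TPM in induced replicate 2.

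The E2F target genes of G1 and S phase were the largest list. Of its 48 genes 47 were tested, and 43 of these were called lower, beside 10.2% of all genes, with a median of -1.81. After median-of-ratios scaling 33 were called lower, beside 3.21% of all genes, with a median of -1.53. The summed TPM of the 48 genes was 1659, 1765 and 1480.2 in the uninduced libraries and 434.7, 429.5 and 496.4 in the induced ones. The groups stood far apart, with little spread within either. Mcm10, which starts replication forks, went from 9.31 ± 5.37 to 0.0673 ± 0.0608 TPM (SD, n = 3 each), with a change of -3.15 (limma adjusted p = 0.00386). Uhrf1, which keeps DNA methylation through replication, fell by 3.09 on the log2 scale (limma adjusted p = 0.000197), from 58.6, 50.98 and 51.3 TPM to 5.65, 4.27 and 6.54 TPM. Prim1, the DNA primase subunit, changed by -2.93 (limma adjusted p = 0.00170). After median-of-ratios scaling Mcm10 (-2.97), Uhrf1 (-2.72) and Prim1 (-2.60) were still called. Cdc6, Rfc3, Wee1 and Pole were tested but not called, and Orc1 fell below the filter at 0 to 1.74 TPM.

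Late cell cycle genes, the targets of B-MYB, FOXM1 and the CHR element, were the other long list. Of its 30 genes 28 were tested, and 24 of these were called lower, beside 10.2% of all genes, with a median of -2.12. After median-of-ratios scaling 19 were called lower, beside 3.21% of all genes, with a median of -1.80. As deposited, the 28 tested genes all lay lower in every induced library than in every uninduced one, beside 28.2% of all genes. Nuf2, a kinetochore protein (-3.31, limma adjusted p = 0.00265), the survivin gene Birc5 (-3.00, adjusted p = 0.00400) and the mitotic kinesin Kif20a (-2.93, adjusted p = 0.00281) had the largest changes. All 3 were called after scaling as well, at -3.05, -2.69 and -2.73. The proliferation marker Mki67 read 48.0, 53.2 and 48.6 TPM and then 6.11, 7.23 and 7.79 TPM. Kif2c, Ect2, Cdk1 and Aurka were tested but not called, and Kif11 and Cdc25c were below the filter.

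The Polycomb partners of E2F6 formed a list of 10 genes. In that list 2 of 10 were called lower, beside 10.2% of all genes: Cbx3, a heterochromatin protein (-1.26, limma adjusted p = 0.00537), and Mga, the DNA-binding scaffold (-0.93, adjusted p = 0.0463), with a list median of -0.56. After median-of-ratios scaling only Cbx3 was called, beside 3.21% of all genes, and the list median was -0.18. The count was also 1 with any single library left out. The germline genes that E2F6 is known to silence stayed unread or nearly so. Of 7, 5 were listed at 0 in all 6 libraries, and Stag3 and Ddx4 reached at most 0.584 and 0.606 TPM. None of the 10 cell death genes tied to E2F1 was called in either direction, with a median of -0.10 over the 8 tested that turned to 0.25 after median-of-ratios scaling. Without induced replicate 3, 1 of them was called lower. Bbc3 (1.26, limma adjusted p = 0.0775) and Trp53inp1 (1.63, limma adjusted p = 0.0669) were chosen for mention after their values were seen. Each lay higher in every induced than in every uninduced library and missed the threshold, also after scaling (1.56 and 1.91, adjusted p = 0.0695 and 0.0574).

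**Figure D4:**
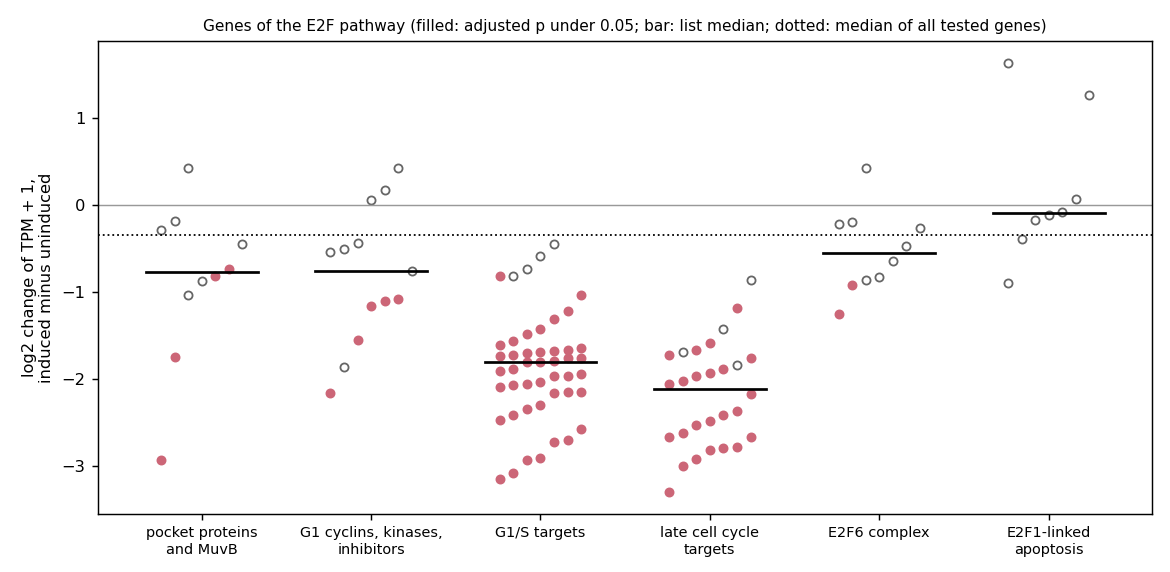
Change of each tested gene in 6 lists of the E2F pathway in log2(TPM + 1), induced minus uninduced, with filled points for an adjusted p under 0.05, a bar at each list median and a dotted line at the median of all tested genes, -0.35. The G1/S and late cell cycle lists lie below the dotted line throughout, with medians of -1.81 and -2.12, while the E2F1-linked apoptosis genes lie around 0.

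The stem cell gate was checked against markers of the cells it could hold. As deposited, 10.2% of all tested genes were called lower and 1.29% higher. All 10 stem cell markers were above the filter, with summed TPM of 409.6 to 574 uninduced and 559.99 to 601 induced. They did not move alike by limma: Hlf, Procr, Mllt3 and Ly6a were called higher, Kit and Ctnnal1 lower, and the other 4 were not called. Of the gate's own markers, Kit went from 142 to 232 TPM uninduced to 91.6 to 103 TPM induced (-0.81, limma adjusted p = 0.0354), and Ly6a (Sca1) from 12.1 to 16.4 TPM to 30.6 to 42.8 TPM (1.33, adjusted p = 0.00694). Slamf1 (CD150) read 10.6 to 15.5 TPM and then 5.31 to 11.3 TPM (-0.78, limma adjusted p = 0.155), and Cd48 was at most 3.02 TPM. Of the 10 erythroid markers 8 were tested, and 6 of these were called higher and 1, Car2, lower. The sum of all 10 went from 389.99 to 465 TPM to 638 to 743 TPM. Car2 was most of the uninduced sum, at 340 to 408 TPM, and read 235 to 276 TPM induced. The rise of the sum therefore lay in the other genes, mostly the globin genes. Lymphoid markers summed to 10.4 to 25.7 TPM and then 3.11 to 3.85 TPM, with Pax5 and Cd3e at 0 in all libraries. Most of that difference was Nkg7, a gene of cytotoxic lymphocytes, at 6.21, 15.8 and 5.84 TPM uninduced and listed at 0 in all induced libraries (limma adjusted p = 0.00378), while Cd79b was not called (adjusted p = 0.197). Multipotent progenitor markers summed to 49.1 to 62.9 TPM and then 67.1 to 86.8 TPM, with none called. Megakaryocyte markers summed to 88.2 to 121 TPM and then 111 to 120 TPM, with Ppbp (3.22) and Pf4 (1.13) called higher and Gp9 (-2.33) lower. Myeloid markers summed to 237 to 287 TPM and then 241 to 292 TPM, with Prtn3 called higher (1.12, limma adjusted p = 0.0114). After median-of-ratios scaling Kit (-0.41, limma adjusted p = 0.220), Ctnnal1, Car2 and Gp9 were no longer called lower, and Mecom, Cd34, Irf8 and Lyz2 were called higher. On that scale 3.21% of all tested genes were called lower and 2.84% higher. The part of these marker shifts in the member changes was not tested. Mouse Etv6 (limma adjusted p = 0.949) and Runx1 (limma adjusted p = 0.452) were not called, and gene-level values of these 2 do not separate a transgene from the mouse genes.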

How the data were processed

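Gene-level TPM in 6 libraries (3 uninduced, 3 induced) were taken from the table of TPM values the authors deposited. The submitters' processing notes name bcl2fastq, HISAT2, StringTie, DESeq2 and the GRCm38 build. Versions, the annotation release, read filters and the use of strand in counting are not given in the sources used here. Of its 60496 rows, 5025 repeated an ID, and summing rows by ID gave 55471 genes. No sample column was left unused (0). TPM sums to the same total in each library, so depth is unknown and no counting interval can be given. Groups came from the library titles.

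Tests used limma 3.58.1 in R 4.3.3 on log2(TPM + 1), with empirical Bayes moderation and a variance trend. They were two-sided and adjusted by the Benjamini-Hochberg method over the 13470 genes that averaged 1 TPM or more (threshold 0.05). The step was tested on simulated data. Same-numbered libraries did not deviate together (correlations of -0.0152 to 0.0215), so replicate numbers were not used as pairs. For ratios an exact permutation test, two-sided, was run. The alternatives were pseudocounts of 0.1 and 5 TPM, no filter, a mean of at least 5 TPM, 3 other scalings, the highest row per gene ID, array weights, a fit without the variance trend, a replicate block and the omission of each library in turn.

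Positions came from the GENCODE annotation of GRCm38 and promoter windows from RefSeq (GRCm38.p6). Near-identical transcripts were searched at 90% identity over at least 200 aligned bases. The members, gene lists and tests were chosen with earlier results of these data known. Named genes were all members, Rb1, Rbl1, Rbl2, Mki67, in each list the 3 called genes with the largest changes and groups apart, and the 3 nearest profiles of each called member. Other genes, markers included, were chosen for mention after their values were seen.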

Additional observations from a re-analysis of the deposited data

How the results depend on the processing

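E2f8 and Tfdp1 were called lower under all 17 alternatives, and no member was called higher. As deposited 174 genes were called higher and 1375 lower (1549 in all). The total was 815 with median-of-ratios scaling (382 higher, 433 lower), 814 with quantile normalization (374 and 440), 886 with rescaling to nuclear protein-coding genes (435 and 451), 752 with no filter on low values, 767 with no variance trend and 573 to 1198 with single libraries left out. Members called numbered 2 with no filter and 2 to 3 with a library left out. Of the pathway genes, 78 were called with all libraries and 54 to 67 with a library left out.

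The replicate block gave 902 genes and an E2f3 change of -1.17 (limma adjusted p = 0.0950), not called. It changed no other member's call. The labels do not say that a shared number links libraries, and the values showed no such link.

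E2f3 also lost its call with no filter (-1.17, limma adjusted p = 0.0876), median-of-ratios scaling (-0.86, 0.148), quantile normalization (-0.85, 0.151), coding-gene rescaling (-0.99, 0.142) and each library left out (-1.21 to -1.11). E2f7 lost it with no filter (-2.51, limma adjusted p = 0.0751) and ranged from -2.80 to -2.01 with a library left out. E2f1 gained a call at a pseudocount of 5 TPM (-0.69, limma adjusted p = 0.0483). Tfdp2 ranged from -0.20 to 0.38 with a library left out.

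The activator median was -1.46 and -0.64 with pseudocounts of 0.1 and 5 TPM, -0.86, -0.85 and -0.99 under the 3 scalings in the order above. That of E2f4 and E2f5 was -0.24, -0.23 and -0.23 under them. That of E2f6 to E2f8 was -3.16 and -1.27 with the pseudocounts, -2.20 with median-of-ratios and with quantile scaling, and -2.65 to -2.01 with a library left out. That of all repressors was -0.54 with a pseudocount of 5 TPM and -0.39 under each scaling. With 1 TPM added to each member, the activator share fell by 1.81 percentage points rather than 4.28. Relative to E2f4, E2f2 turned to 0.20 with a pseudocount of 5 TPM (-0.51 to 0.055 with a library left out), E2f5 to -0.094 with 0.1 TPM (-0.19 to 0.22) and E2f6 to 0.026 with 5 TPM (-0.39 to 0.21). These causes were not tested. A mean of at least 5 TPM left E2f1, E2f2, E2f3 and E2f5 untested. With 3 libraries a group and levels near 1 TPM in induced cells, differences among the low members are limited by unknown depth.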
